A study of Mus musculus with 12 samples.

Results

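Guanylate-binding proteins (GBPs) and immunity-related GTPases (IRGs) were followed as transcripts in mouse peritoneal exudate cells (PECs) before and after lipopolysaccharide (LPS). The members were taken by gene symbol: Gbp2, Gbp3, Gbp5, Gbp7 and Gbp9 among the GBPs, and Irgm1, Irgm2, Igtp, Iigp1 and Tgtp1 among the IRGs, 10 of the 12850 genes in the table. All 10 passed the filter on low values and stood among the 11885 genes tested, Iigp1 and Tgtp1 only through the libraries with LPS. Every member was higher after LPS in both genotypes. Gbp5 was 2.26-fold higher in mutant than in wild-type cells at 0 hr, a difference already known from these data when the members were chosen, so it is given as a description and not as independent evidence.

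PECs were drawn from the peritoneum of C57BL/6 mice given thioglycollate medium, which recruits mainly macrophages, and were cultured with LPS at 100 ng/ml for 0, 4 or 8 hr. LPS is the bacterial cell wall lipid that Toll-like receptor 4 recognises. Cells came from wild-type (WT) mice or from mice homozygous for a knock-in of Zc3h12a (Zc3h12a S513A/S513A, written S513A), which replaces serine by alanine at 1 residue of Regnase-1, an RNase that degrades mRNAs of inflammatory genes. Each of the 6 groups of genotype and time held 2 poly(A) RNA libraries, with 9525979 to 12439960 reads on the listed genes.

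The knock-in is carried in the germ line, so every cell type of the exudate holds it, and a gene-level table cannot show the changed codon. Zc3h12a itself differed between S513A and WT by -0.25, -0.08 and 0.21 on the log2 scale at 0, 4 and 8 hr (limma adjusted p of 0.429 or more). Age and sex of the mice are not in the labels, and nothing in them says whether the 2 libraries of a group came from separate mice, so p-values measure only the spread between these libraries, which may be technical. All 7 macrophage markers were present, with summed levels of 16200 to 26400 CPM over the 12 libraries, where CPM is a read count scaled to the library size. The markers found for eosinophils (2 of 5), dendritic cells (4 of 5), B cells (4 of 6), mast cells (4 of 5), T and NK cells (2 of 10) and mesothelial cells (3 of 4) summed to at most 18.5 CPM for any list in any library, and those of neutrophils (2 of 8, S100a8 and Camp) to 20.3 to 108 CPM. In a bulk sample, fewer cells of a type and less RNA per cell cannot be told apart.

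GBPs are large GTPases that assemble on the membranes of pathogen vacuoles and on bacterial surfaces, where they open compartments and promote inflammasome activation. IRGs are smaller relatives with a division of labour: the regulatory IRGM proteins (Irgm1, Irgm2 and Irgm3, the last encoded by Igtp) sit on host membranes and hold the effector IRGs inactive there, while effectors such as Irga6 (Iigp1) and Irgb6 (Tgtp1) load onto vacuoles and disrupt them. Interferons are the classical inducers of both families, through promoter elements that include the gamma-activated site (GAS) and the interferon-stimulated response element (ISRE), and macrophages reach this programme after LPS through the interferon they secrete.

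The members lie in a few clusters (RefSeq, GRCm38.p6). Gbp5 at chr3:142496934-142522344, Gbp7 at chr3:142530336-142550151, Gbp3 at chr3:142560016-142573213 and Gbp2 at chr3:142620663-142638008 followed each other on the plus strand of chromosome 3. Gbp9 lay at chr5:105076464-105110357. Irgm1 at chr11:48865245-48871420 and Tgtp1 at chr11:48985329-48992246 were on the minus strand of chromosome 11, and Igtp at chr11:58199556-58207592 and Irgm2 at chr11:58214977-58222783 on its plus strand.

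RefSeq promoter windows of 300 bases, from 250 before to 50 after the start site, were used for 8 of the 10 members. None was found for Gbp9, and Iigp1 was not searched. They are shown because these genes rose together after LPS and because the 2 interferon motifs can be read in them. The stretch printed for Gbp5 is chr3:142496684-142496933, the 250 bases before its start. For the others the 110 bases before the start are printed: Gbp7 chr3:142530226-142530335, Gbp3 chr3:142559934-142560043, Gbp2 chr3:142620553-142620662, Irgm2 chr11:58214867-58214976 and Igtp chr11:58199446-58199555 on the plus strand, and Irgm1 chr11:48871421-48871530 and Tgtp1 chr11:48992247-48992356 on the minus strand. All are written 5′ to 3′ on the strand of the gene, with capitals for each match to the ISRE core GAAANNGAAA, searched on both strands, or to GAS, TTCNNNGAA, which reads the same on both strands.
Gbp5: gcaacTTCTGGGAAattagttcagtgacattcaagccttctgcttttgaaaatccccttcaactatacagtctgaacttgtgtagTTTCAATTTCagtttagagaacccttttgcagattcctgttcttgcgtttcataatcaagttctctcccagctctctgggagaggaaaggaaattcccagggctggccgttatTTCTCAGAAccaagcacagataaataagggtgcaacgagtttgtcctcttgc
Gbp7: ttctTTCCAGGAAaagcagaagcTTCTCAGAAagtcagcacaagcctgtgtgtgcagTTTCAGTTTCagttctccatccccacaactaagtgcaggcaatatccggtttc
Gbp3: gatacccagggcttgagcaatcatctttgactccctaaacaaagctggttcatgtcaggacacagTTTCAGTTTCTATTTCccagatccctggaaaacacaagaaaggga
Gbp2: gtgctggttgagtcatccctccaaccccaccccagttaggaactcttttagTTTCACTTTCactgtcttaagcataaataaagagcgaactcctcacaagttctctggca
Irgm1: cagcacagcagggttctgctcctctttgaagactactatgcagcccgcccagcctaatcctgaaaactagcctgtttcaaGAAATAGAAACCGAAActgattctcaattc
Irgm2: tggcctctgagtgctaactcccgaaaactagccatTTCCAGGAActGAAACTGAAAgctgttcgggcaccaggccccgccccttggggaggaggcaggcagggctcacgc
Igtp: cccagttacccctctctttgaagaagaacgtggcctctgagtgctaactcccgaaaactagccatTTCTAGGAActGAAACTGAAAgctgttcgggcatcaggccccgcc
Tgtp1: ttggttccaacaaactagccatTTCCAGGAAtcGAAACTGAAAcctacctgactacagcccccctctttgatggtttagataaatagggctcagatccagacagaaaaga

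All 8 members held the ISRE core in a window, against 3.99% of all genes with windows (3.44% of the 32851 promoter windows). Gbp3 has a second RefSeq start, whose window held neither motif. GAS was found in 5 members (Gbp5, Gbp7, Irgm2, Igtp and Tgtp1), against 9.55% of all genes with windows (8.3% of all windows). In Irgm2, Igtp and Tgtp1 the GAS match preceded the ISRE core by a gap of 2 bases, an arrangement noticed in these members and present in 5 genes of the whole table, which also include Tgtp2 and Gm12185. Irgm2 and Igtp shared an identical run of 61 bases in these windows. In no member did the matches to the 2 motifs overlap. For Gbp7, Irgm2 and the second start of Gbp3, no GENCODE transcript held near its beginning the bases that follow the RefSeq start. Distances for these rest on the RefSeq start alone. A match is a description of the letters and not evidence of binding.

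**Figure D1:**
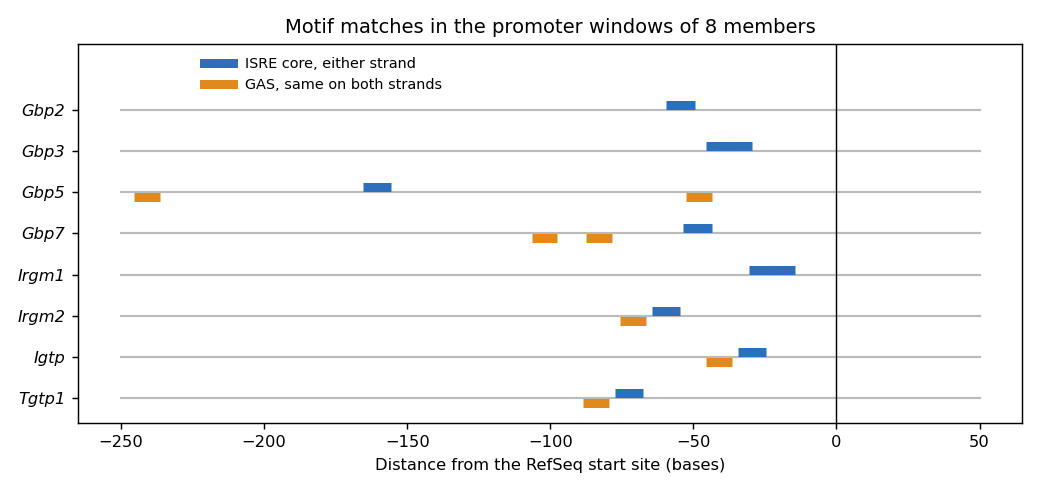
Matches to the ISRE core (blue) and to GAS (orange) in the promoter windows of 8 members, by distance in bases from the RefSeq start site (vertical line at 0). The ISRE core of Gbp5 begins at -165, and those of the other 7 members begin between -77 and -24.

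The first comparison asked whether the mutation changed these transcripts before LPS. Gbp5, which promotes assembly of the NLRP3 inflammasome, was at 1.85 and 2.12 CPM in the WT libraries (26 and 27 reads) and at 4.52 and 4.404 CPM in the S513A libraries (51 and 52 reads). The S513A libraries were both higher. At such read counts the closeness of 2 libraries of a group is no measure of their spread. The difference was 1.17 ± 0.13 on the log2 scale (SE, n = 2 per group, limma with Benjamini-Hochberg adjustment over all genes tested, adjusted p = 0.0168). Reads summed over each group gave a ratio of 2.28 with a 95% counting interval of 1.62 to 3.24. The limma interval for the fold, 1.86 to 2.74, is narrower than this. The fit shares 1 spread over all groups, so its SE and adjusted p understate the counting error at 0 hr. Gbp5 was the 1 member of 10 called at 0 hr, where 0.0337% of all genes tested were called (4 genes). Its difference was known when the members were chosen, so the 2 shares cannot be compared as a test. The authors, in their own comparison of these genotypes, reported no gene at an adjusted p below 0.05, with or without LPS. The test behind their statement is not given in the sources used here, so the call depends on the fit used.

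The call rests on all 4 libraries of that time point, since leaving out any of them gave adjusted p between 0.0890 and 0.173 with log2 differences of 1.08 to 1.27, and it was also lost with a further pseudocount of 1 CPM (difference 0.88, adjusted p = 0.0805), a prior without a trend (adjusted p = 0.1204) and precision weights that follow the read count (adjusted p = 0.528). The 2 neutrophil markers summed to 20.3 and 35.4 CPM in WT and to 54.2 and 51.1 CPM in S513A at 0 hr, and their part in the Gbp5 difference was not tested.

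The family did not share the call. Among the other 9 members, Gbp2, which acts on pathogen vacuoles, was at 52.2 and 44.9 CPM in WT and 67.1 and 80.8 CPM in S513A, a log2 difference of 0.60 ± 0.17 (SE, adjusted p = 0.586). Gbp3 stood at 13.5 and 9.81 CPM against 14.2 and 16.2 CPM, a log2 difference of 0.40. Both had S513A libraries above the WT libraries, but by less than the adjusted test required.

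Gbp9 went the other way. Its WT libraries were at 4.98 and 4.89 CPM and its S513A libraries at 2.68 and 3.23 CPM. They did not overlap, and in 27.1% of all genes tested the S513A libraries likewise lay wholly below the WT libraries. The log2 difference was -0.75 ± 0.15 (SE, adjusted p = 0.586), and reads summed over groups, 68 in S513A and 134 in WT, gave a ratio of 0.595 (95% counting interval 0.438 to 0.803).

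Gbp7, which takes part in host defence of macrophages, lay at 21.1 and 23.6 CPM in WT and 22.9 and 26.1 CPM in S513A. The regulatory Irgm1, Irgm2 and Igtp differed by 0.14, 0.14 and 0.23 on the log2 scale. Irgm1 was at 40.6 and 39.8 CPM in WT and 44.6 and 44.3 CPM in S513A, and the confidence interval of its log2 difference ran from -0.20 to 0.49. The effector genes Iigp1 and Tgtp1 were close to the limit of counting at 0 hr: Iigp1 had 5 and 1 reads in WT and 2 and 8 in S513A, and Tgtp1 had 1 and 3 reads in WT and 1 and 2 in S513A. Ratios of summed S513A to WT reads were 1.96 for Iigp1 (95% counting interval 0.644 to 6.55) and 0.88 for Tgtp1 (0.129 to 5.2), so no difference was detectable at this depth.

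Counted together at 0 hr, 8 members had a log2 difference above 0 and 2 below. The S513A libraries lay wholly above the WT libraries in 6 members (Gbp2, Gbp3, Gbp5, Irgm1, Irgm2 and Igtp), against 30.4% of all genes tested. The median log2 difference of the 10 members was 0.19, beside 0.01 over all genes, and it was 0.12 without the S513A library of replicate 2 and 0.28 without that of replicate 1. The members were measured in the same libraries and are not independent, so these counts are a description. Whether Gbp5 differed more than the rest of the family was not tested.

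**Figure D2:**
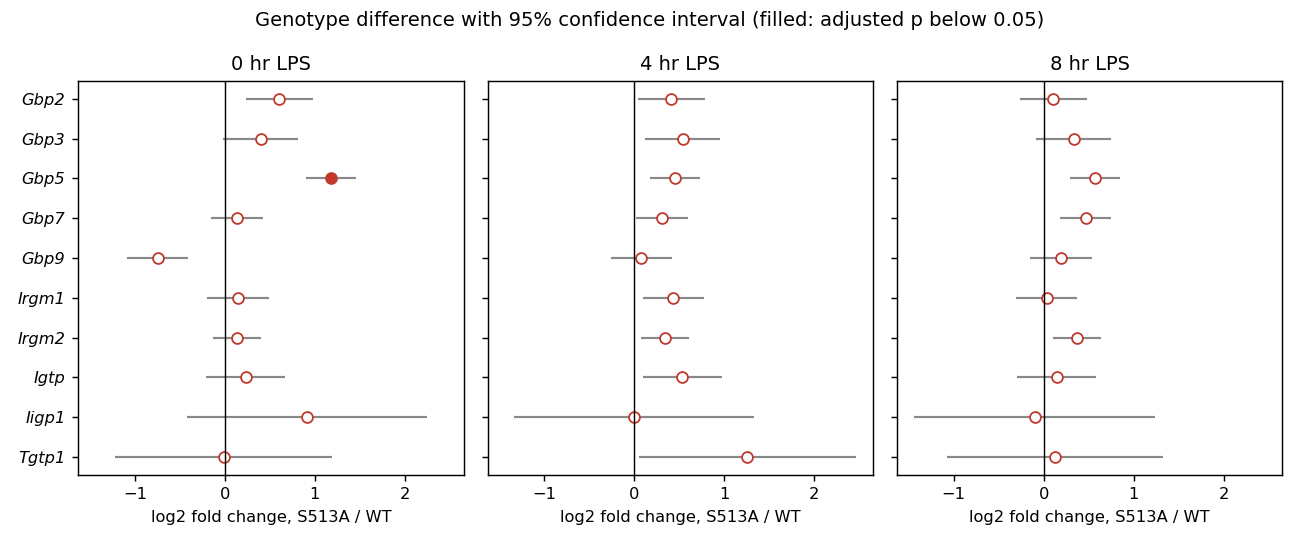
Log2 fold change of S513A over WT for each member at 0, 4 and 8 hr of LPS, with the 95% confidence interval of the limma fit (2 libraries per group). The filled point is Gbp5 at 0 hr, the only difference in these panels with an adjusted p below 0.05, and the widest intervals belong to Iigp1 and Tgtp1.

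At 4 hr no member was called between genotypes, beside 0.0168% of all genes tested (2 genes). Gbp5 was at 683 and 652 CPM in WT and 863 and 968 CPM in S513A, a log2 difference of 0.45 ± 0.13 (SE, adjusted p = 0.622). Irgm1, whose product keeps effector IRGs off host membranes, was at 326 and 271 CPM in WT and 351 and 459 CPM in S513A. Igtp was at 133 and 108 CPM in WT and 151 and 198 CPM in S513A. In all these genes the S513A libraries lay above the WT libraries at 4 hr.

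That arrangement held in 8 of 10 members at 4 hr (all but Gbp9 and Iigp1), against 14.3% of all genes, and the same 8 had an unadjusted p below 0.05, against 7.01% of all genes. Their log2 differences ran from 0.31 for Gbp7 to 1.25 for Tgtp1, the last from 16 reads in WT and 33 in S513A. The median of the 10 members was 0.42, beside 0.01 over all genes. The members come from the same libraries and move together, so they are not independent. Counts of members at 4 hr, and those at 8 hr below, are descriptions and not repeats of the genotype comparison. The S513A library of replicate 2 was above that of replicate 1 in all 10 members at 4 hr, and without it the median was 0.28 with 8 of 10 members above 0, while without replicate 1 it was 0.53 with 10 of 10. Neutrophil markers summed to 53.3 and 108 CPM in the S513A libraries and 64.9 and 45.4 CPM in the WT libraries at 4 hr, and their part was not tested.

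At 8 hr no member was called either, beside 0.0337% of all genes tested (4 genes). Gbp5 was at 391.9 and 493 CPM in WT and 648 and 658 CPM in S513A, a log2 difference of 0.57 ± 0.13 (SE, adjusted p = 0.395). Gbp7 was at 275 and 319 CPM in WT and 405 and 413 CPM in S513A, and Irgm2 at 94.9 and 116 CPM in WT and 134 and 137 CPM in S513A. These 3 members had S513A libraries above the WT libraries, against 27.9% of all genes, and were also the 3 with an unadjusted p below 0.05, against 12.5% of all genes.

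For the other members at 8 hr the libraries of the genotypes overlapped, with log2 differences from -0.10 for Iigp1 to 0.33 for Gbp3. Gbp2, the most abundant member, was at 1267 and 1521 CPM in WT and 1359 and 1642 CPM in S513A. The median of the 10 members was 0.17, with 9 above 0. The WT library of replicate 2 was above that of replicate 1 in all 10 members at 8 hr. Without WT replicate 1 the median was 0.05 with 5 of 10 above 0, without WT replicate 2 it was 0.40 with 10 of 10, without S513A replicate 1 it was 0.36 with 10 of 10, and without S513A replicate 2 it was 0.09 with 6 of 10. Neutrophil markers summed to 84.2 and 102 CPM in WT and 33.5 and 86.9 CPM in S513A at 8 hr, and their part was not tested.

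Averaged over the 3 time points, Gbp5 was the 1 member called, 1.66-fold higher in S513A (log2 difference 0.73 ± 0.07, SE, adjusted p = 0.00294), where 0.0673% of all genes tested were called (8 genes). Its S513A libraries were above its WT libraries at each of the 3 time points, and the call held under all 23 alternatives run, with adjusted p from 5.93e-06 to 0.0498. The average contains the 0 hr difference, the largest of the 3 and the one known beforehand, and the differences at 4 and 8 hr were not called, so this call is not separate from the baseline one. The other averaged log2 differences ran from -0.16 for Gbp9 to 0.46 for Tgtp1, with adjusted p of 0.384 or more. Irgm2, Gbp7 and Igtp, for example, were at 0.28 ± 0.07, 0.30 ± 0.07 and 0.30 ± 0.11 (SE).

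The design also allows a test of the LPS change in S513A against that in WT. No member passed the interaction test at 4 hr or at 8 hr by limma, and 0% of all genes did. For Gbp5 the LPS change was smaller in S513A by 0.72 on the log2 scale at 4 hr and by 0.60 at 8 hr (adjusted p = 1.00 and 0.193). For Gbp9 it was larger by 0.82 and 0.94 (adjusted p = 1.00 and 0.193). Gbp5 and Gbp9 were the 2 members with an unadjusted p below 0.05 at each time, against 1.21% of all genes at 4 hr and 20.2% at 8 hr. These values rest on the same 0 hr libraries as the baseline differences of the 2 genes and are not separate from them.

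LPS raised every member in both genotypes at both times. Iigp1 and Tgtp1 were under 1 CPM in all 4 libraries at 0 hr and passed the filter only through the libraries with LPS, so a difference was built into their selection and they are left out of the counts here. The other 8 were called higher at 4 hr, where 22.6% of all genes were called higher in WT and 23.1% in S513A, and the same 8 at 8 hr, against 19.4% and 20.9%. The median log2 change of these 8 at 4 hr was 3.52 in WT and 3.67 in S513A, and at 8 hr 3.58 in WT and 4.204 in S513A, beside medians over all genes between -0.01 and 0.04. The comparisons with 0 hr share their 0 hr libraries within a genotype, so the values for 4 and 8 hr are set side by side and not as repeats of each other.

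**Figure D3:**
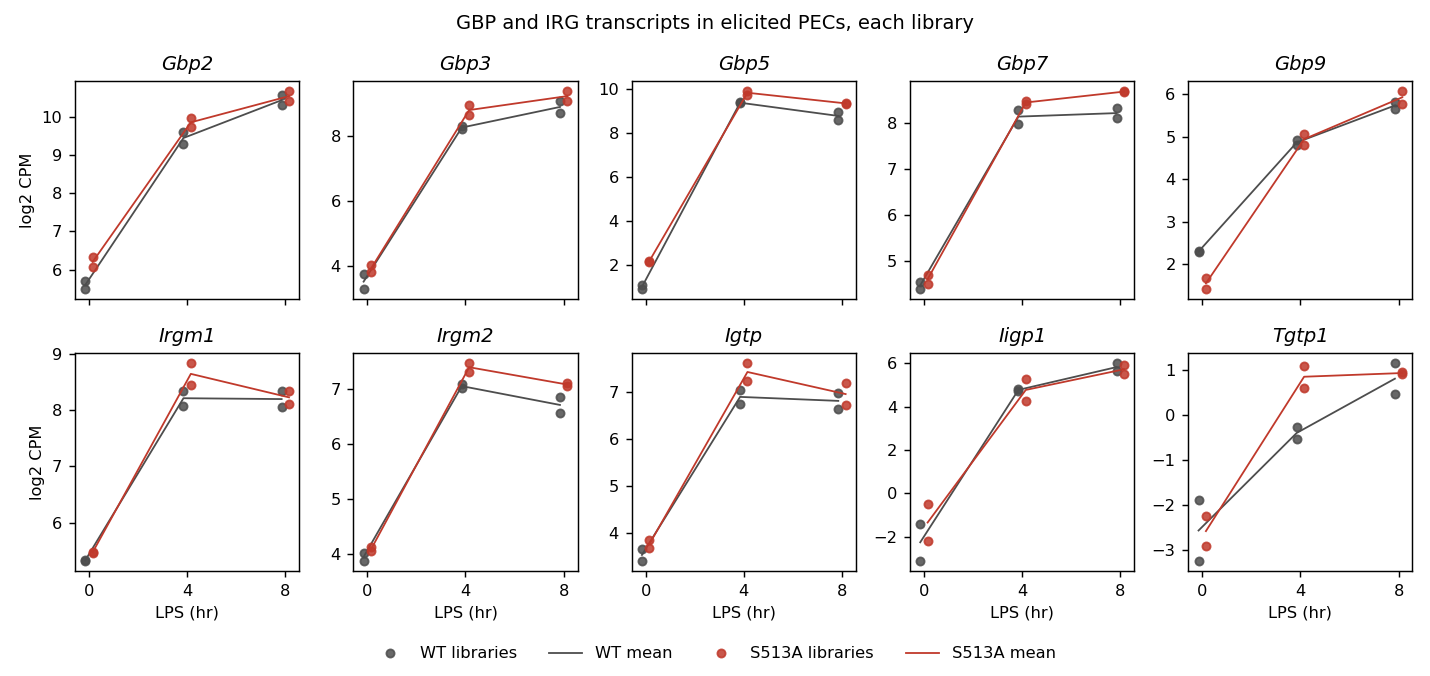
Log2 CPM of each member in each of the 12 libraries by time of LPS, with WT in grey, S513A in red and lines through the group means of 2 libraries. The scale of the y axis differs between panels. Gbp5 goes from 0.88 and 1.08 in WT at 0 hr to 9.42 and 9.35 at 4 hr, and in every panel the libraries with LPS lie above those at 0 hr.

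Gbp5 had the largest rise at 4 hr. It went from about 2 CPM in WT to 683 and 652 CPM, a 338-fold change (log2 change 8.40 ± 0.13, SE), and in S513A the change was 205-fold (7.68 ± 0.13). At 8 hr the changes from 0 hr were 222-fold and 146-fold. All 8 libraries with LPS lay above all 4 without it.

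Among the other GBPs, Gbp3 rose 26.6-fold in WT and 29.3-fold in S513A at 4 hr and 41.3-fold and 39.5-fold at 8 hr. Gbp2 rose 14.4-fold and 12.6-fold at 4 hr, then reached 28.7-fold and 20.3-fold at 8 hr. Gbp7 rose 12.6-fold and 14.2-fold at 4 hr and 13.3-fold and 16.7-fold at 8 hr. These 3 genes neighbour Gbp5 on chromosome 3, and each was at a higher level than Gbp5 at 0 hr. Gbp7 shares 637 exonic bases with the pseudogene Gm43802 in the annotation, so reads there could be given to either.

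Gbp9, from the chromosome 5 cluster, rose 5.90-fold in WT, from 4.98 and 4.89 CPM to 27.8 and 30.5 CPM at 4 hr. In S513A it rose 10.5-fold, from 2.68 and 3.23 CPM to 28.1 and 33.6 CPM. The libraries of the genotypes overlapped at 4 hr, and again at 8 hr, where WT was at 50.5 and 56.0 CPM and S513A at 54.8 and 67.4 CPM.

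The regulatory IRGs moved within a narrow range. Irgm1 rose 7.39-fold in WT and 9.04-fold in S513A at 4 hr, Irgm2 8.60-fold and 9.93-fold, and Igtp 10.4-fold and 12.8-fold. At 8 hr the folds of these 3 genes were 6.76 to 9.80. Igtp and Irgm2 share 162 exonic bases in the annotation, so reads there could be given to either gene.

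Iigp1, which encodes the effector Irga6, went from 1 to 8 reads per library at 0 hr to 194 to 336 reads at 4 hr and 523 to 679 reads at 8 hr. Ratios of summed reads to 0 hr were 125 in WT (95% counting interval 57.0 to 341) and 65.8 in S513A (35.5 to 138) at 4 hr, and 261 (119 to 712) and 122 (66.3 to 256) at 8 hr. The intervals of the genotypes overlapped at both times. In the S513A libraries at 4 hr Iigp1 was at 19.1 and 39.1 CPM, the widest gap on the log2 scale between libraries of 1 group for any member at that time.

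Tgtp1 was counted in few reads throughout. The WT libraries held 9 and 7 reads at 4 hr and 14 and 23 at 8 hr, and the S513A libraries 15 and 18, then 22 and 17. Ratios of summed reads to 0 hr were 4.92 in WT (95% counting interval 1.59 to 20.2) and 13.7 in S513A (4.29 to 69.6) at 4 hr. Of the 50-base stretches in Tgtp1 transcripts 79.4% also occur in Tgtp2, its near-identical neighbour, so how reads were divided between them is uncertain, and the call in WT at 4 hr was lost without the WT 0 hr library of replicate 1 (adjusted p = 0.0717) and with only the groups compared in the fit (adjusted p = 0.0723).

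**Figure D4:**
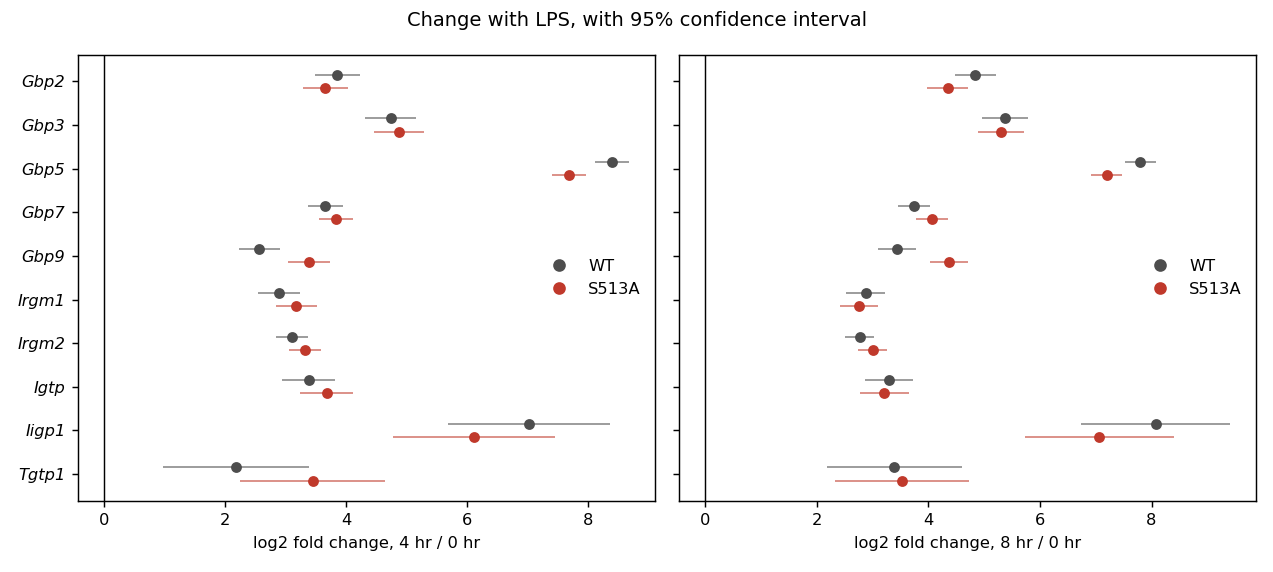
Log2 fold change from 0 hr to 4 hr (left) and to 8 hr (right) for each member in WT (grey) and S513A (red), with 95% confidence intervals of the limma fit (2 libraries per group). All points lie above 0 with an adjusted p below 0.05, and Gbp5 and Iigp1 lie farthest to the right. Iigp1 and Tgtp1 passed the filter only through the libraries with LPS, so a rise was built into their selection and their adjusted p is not a test of it.

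Between 4 and 8 hr the members moved in different directions. In WT, 3 members were called higher (Gbp2, Gbp3 and Gbp9) and 1 lower (Gbp5), where 6.73% of all genes were called higher and 7.49% lower. In S513A, 2 were called higher (Gbp2 and Gbp9) and 1 lower (Gbp5), against 9.31% and 8.99% of all genes. No IRG was called in either genotype in the reported fit.

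Gbp2 rose from 782 and 624 CPM at 4 hr to 1267 and 1521 CPM at 8 hr in WT, a 1.99-fold change (adjusted p = 0.00392, limma), and 1.61-fold in S513A (adjusted p = 0.0196). Gbp9 rose 1.83-fold in WT and 1.98-fold in S513A (adjusted p = 0.0049 and 0.00251). Gbp3 rose 1.55-fold in WT (adjusted p = 0.0487), while in S513A its ratio was 1.35 (adjusted p = 0.129). The difference between the genotypes in that change was not tested, and the call in WT lay close to the threshold and was lost, for example, with library sizes scaled by median ratios (adjusted p = 0.0560). Gbp5 fell by 0.60 on the log2 scale in WT and by 0.48 in S513A (adjusted p = 0.0108 and 0.0248), from 863 and 968 CPM to 648 and 658 CPM in the latter.

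For the regulatory IRGs the log2 changes from 4 to 8 hr were -0.02 in WT and -0.42 in S513A for Irgm1, -0.34 and -0.31 for Irgm2, and -0.09 and -0.47 for Igtp, with adjusted p of 0.0824 or more. Iigp1 was at 28.5 and 26.3 CPM at 4 hr and 49.7 and 64.8 CPM at 8 hr in WT, a log2 change of 1.05 whose interval, -0.28 to 2.39, includes 0. That interval rests on a spread shared with the 0 hr libraries, of 1 to 8 reads. The 8 hr libraries of Iigp1 lay above those of 4 hr in both genotypes, against 27.4% of all genes in WT and 29.2% in S513A. Its WT rise was called in 3 of 24 alternatives, such as with only the groups compared (limma adjusted p = 0.0158). The S513A rise was called in 1 of 24. The counts of called members depend on single libraries: 4 members in WT became 1 without the WT 8 hr library of replicate 2 and 2 without that of replicate 1, and 3 members in S513A became 1 without the S513A 4 hr library of replicate 2.

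**Figure D5:**
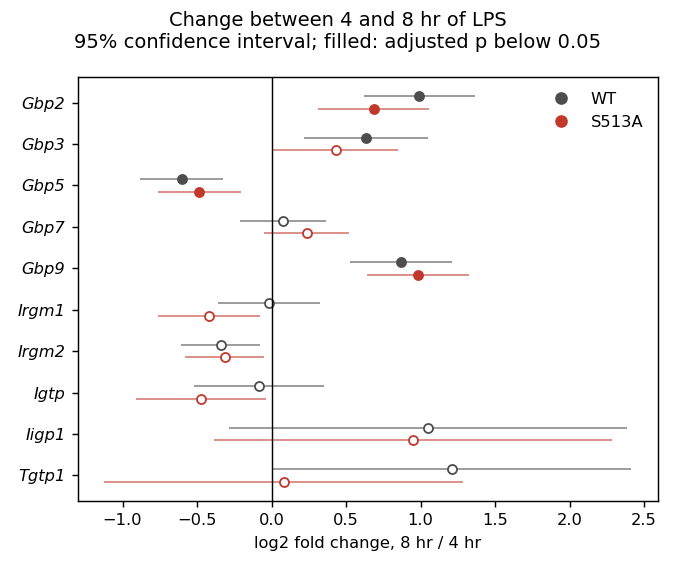
Log2 fold change from 4 to 8 hr of LPS for each member in WT (grey) and S513A (red), with 95% confidence intervals of the limma fit (2 libraries per group). Filled points have an adjusted p below 0.05: Gbp2 and Gbp9 lie right of 0 and Gbp5 left of 0 in both genotypes, and Gbp3 is filled in WT only.

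To compare genes with each other, levels were divided by the union length of the annotated exons and given as CPM per kilobase. At 0 hr in WT the order was Gbp2 at 19.2, Irgm1 at 6.92, Igtp at 5.68, Irgm2 at 4.18, Gbp7 at 3.97, Gbp3 at 3.52, Gbp9 at 0.954 and Gbp5 at 0.298 (geometric means of 2 libraries), with Tgtp1 and Iigp1 below 0.1. Libraries overlapped between Irgm2 and Gbp7, between Gbp7 and Gbp3 and between Tgtp1 and Iigp1, and the other neighbours in this order did not overlap. In S513A at 0 hr Gbp5, at 0.672, stood above Gbp9, at 0.568, without overlap, the reverse of their order in WT. These S513A levels rest on 51 and 52 reads for Gbp5 and 30 and 38 for Gbp9, and on the exon lengths used. The reversal restates the 0 hr differences of the 2 genes given above, of which that of Gbp9 was not called, and is not a separate result.

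After LPS, Gbp5 moved from the low end of the order to the second place. At 4 hr in WT, Gbp2 was at 278 CPM per kilobase, Gbp5 at 101 and Gbp3 at 93.8, each apart from the next. Igtp at 59.0 overlapped Irgm1 at 51.1, Irgm1 overlapped Gbp7, and Irgm2 followed at 36.0. Gbp9 at 5.63, Iigp1 at 4.70 and Tgtp1 at 0.237 closed the order in WT.

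In S513A at 4 hr Gbp5 at 138 and Gbp3 at 136 overlapped below Gbp2 at 369. At 8 hr Gbp3 stood above Gbp5 in both genotypes, at 146 against 66.2 in WT and at 183 against 98.4 in S513A, with no overlap. Gbp2 remained first, at 552 in WT and 594 in S513A.

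The other GTPases of these families were read from a list of 24 symbols, of which 17 were in the table and 14 were tested. None was called between genotypes at 0, 4 or 8 hr or averaged, and 4 of them had an unadjusted p below 0.05 at 0 hr, 3 at 4 hr and 0 at 8 hr, against 7.98%, 7.01% and 12.5% of all genes. Of the 14, 6 passed the filter only through the libraries with LPS. Of the other 8, 5 were called higher at 4 hr in WT and 7 in S513A, against 22.6% and 23.1% of all genes, and none lower, against 18.7% and 20.2%. At 8 hr 5 of these 8 were called higher in each genotype, against 19.4% and 20.9% of all genes. Irgq was called lower in WT by 0.73 on the log2 scale, where 14.9% of all genes were called lower in WT and 19% in S513A.

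By the rule for named genes the largest LPS changes in that list belonged to Tgtp2, Gbp4, Gbp2b and Gm4951, all 4 among the genes that passed only through the libraries with LPS. Tgtp2, the neighbour of Tgtp1, had 6 and 1 reads in WT and 9 and 6 in S513A at 0 hr and between 186 and 355 reads at 4 hr. Gbp4 went from 2 to 4 reads per library to between 51 and 76 at 4 hr and between 132 and 151 at 8 hr. Gm4951, an IRG relative, had 5 to 15 reads at 0 hr and 116 to 177 at 4 hr, and Gbp2b had 0 or 1 reads at 0 hr and at most 30 after LPS.

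The genes that lead to the family were read from a list of interferon signalling genes, 17 of 18 in the table. None was called between genotypes at any time or averaged, with 2, 1 and 3 of them at an unadjusted p below 0.05 at 0, 4 and 8 hr, close to the 7.98%, 7.01% and 12.5% of all genes. Without Ifng, which passed the filter only through the libraries with LPS, 12 of 16 were called higher at 4 hr in both genotypes, against 22.6% and 23.1% of all genes, and 2 lower (the receptor chain Ifngr1 and the factor Irf8), against 18.7% and 20.2%. Their median log2 change at 4 hr was 1.38 in WT and 1.29 in S513A. At 8 hr 11 were called higher and 1 lower in WT, against 19.4% and 14.9% of all genes, and 13 and 1 in S513A, against 20.9% and 19%.

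Ifng, the interferon that most strongly induces GBPs and IRGs, had 0 reads in all 4 libraries at 0 hr, where the limit taken for a count of 0 was 3 reads, 8 to 17 reads at 4 hr and 18 to 21 reads at 8 hr. Its usual sources, T and NK cells, had summed markers of 1.11 to 2.64 CPM over the 12 libraries, and their part was not tested. Against that limit in each library it was at least 4.71-fold higher in WT and at least 5.18-fold higher in S513A at 4 hr. The feedback inhibitor Socs1 rose by 4.53 and 4.84 on the log2 scale at 4 hr in WT and S513A, Batf2 by 3.16 and 3.36, and Nlrc5, the activator of MHC class I genes, by 2.78 and 2.98.

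Genes that work with GBPs and IRGs, the autophagy conjugation machinery that places them and the inflammasome genes downstream, were read from a list of 19, of which 18 were tested. None was called between genotypes, and at 0, 4 and 8 hr 1, 1 and 2 had an unadjusted p below 0.05, near the shares of all genes. With LPS at 4 hr 8 of 18 were called higher in both genotypes, against 22.6% and 23.1% of all genes, and 3 lower, a share close to the 18.7% and 20.2% of all genes. At 8 hr 7 were called higher and 1 lower in WT, against 19.4% and 14.9% of all genes, and 8 and 4 in S513A, against 20.9% and 19%. The largest changes were those of the inflammasome sensor Nlrp3 (log2 change at 4 hr 4.18 in WT and 4.14 in S513A), the ubiquitin ligase Rnf213 (3.11 and 3.15), Casp4, which encodes caspase-11 (2.31 and 2.45), and Trim21 (2.45 and 2.75).

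Likeness of pattern was described by Pearson's r over the 12 libraries on the log2 CPM scale among the 8345 other genes whose log2 CPM averaged 3 or more. The 5 genes most like Gbp5 were Ifit2, Ehd1, Slamf7, Txnrd1 and Filip1l, with r from 0.996 to 0.9975. For the mean of the 10 members they were Slfn1, Irf1, Herc6, Dck and Cd38, with r from 0.9967 to 0.9985. Between pairs of members r ran from 0.925 to 0.999. All these values share the same libraries and the step from 0 hr to LPS. Ifit2, the first of the genes like Gbp5, was also above WT in the S513A libraries at 0 hr, at 3.28 and 3.02 log2 CPM against 2.84 and 2.36. It was not called there (limma adjusted p = 0.586). Ehd1, Slamf7, Txnrd1 and Filip1l were arranged likewise, as were 30.4% of all genes tested. These genes were chosen for likeness to Gbp5 over libraries that include those of 0 hr, so a likeness there is partly built in.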

How the data were processed

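RNA-seq libraries (poly(A) RNA, a NEBNext Ultra kit that does not mark strand) were aligned by the authors with HISAT2 to mm10 and counted with featureCounts 1.6.3. The annotation and the treatment of reads that map to several genes are not given in the sources used here. The deposited table holds log2 CPM values, which the authors computed with 0.5 reads added and scaled library sizes. Whole reads were recovered from them with a departure of at most 0.00163 reads.

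Genes at 1 CPM or more in at least 2 libraries were tested (11885). limma 3.58.1 in R 4.3.3 was fitted to the deposited log2 values with 1 mean per group of genotype and time, a prior that follows the mean level, 6 residual degrees of freedom and two-sided tests, and p was adjusted by Benjamini-Hochberg over all genes tested. A gene was called at an adjusted p below 0.05. The model was tested on simulated data. Non-overlap means that both libraries of a group lie beyond both of the other. Exact binomial intervals on summed reads cover counting error only. Exon lengths and shared 50-base stretches came from GENCODE vM21, and promoters from RefSeq (GRCm38.p6).

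Named genes are the 10 members, any gene of 3 further lists called between genotypes (none was), the 4 genes of each list with the largest mean absolute LPS change, and the 5 genes of highest r to each pattern. Genes named beside these were chosen after their values were seen. Members and lists were chosen with earlier results of these data known. Replicate numbers were not taken to pair libraries, since the correlation of replicate differences between genotypes was -0.25, -0.74 and 0.36 at 0, 4 and 8 hr and within genotypes ran from -0.36 (WT at 4 and 8 hr) to 0.76 (S513A at 4 and 8 hr). Alternatives changed the filter, pseudocount, scaling, prior, weights, libraries fitted and replicate terms, and left out each library in turn.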

Additional observations from a re-analysis of the deposited data

How the results depend on the processing

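Each of the 10 members was refitted in 12 comparisons under 12 alternatives and with each of 12 libraries left out, 2858 values in all (a few fits could not be made, such as Tgtp1 under the stricter filter), of which 2746 kept direction and side of the threshold, 35 lost the call, 35 gained it and 42 changed sign. The LPS calls at 4 and 8 hr against 0 hr kept their count within 1.5-fold throughout. The main limit is 2 libraries per group with a median SE of 0.183 on the log2 scale, and 1 to 8 reads for Iigp1 and Tgtp1 at 0 hr. The cause of the changes below was not tested, except that the calls gained with the hidden factor were built in, as stated there.

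Members called between genotypes at 0 hr were 1 in the reported fit, 0 with a further pseudocount of 1 CPM, a prior without a trend or read-depth weights, 2 with only the groups compared in the fit (Gbp5 and Gbp2), 3 with a hidden factor as a term and 0 to 1 with a library left out. That hidden factor, the first component of the differences between replicates (67.6% of their variance), called 6 members at 4 hr, 3 at 8 hr, 7 averaged, 3 in the 8 hr interaction and 7 between 4 and 8 hr in S513A, and over all genes tested it called 1790 between genotypes at 0 hr (4 without it), 1495 at 4 hr (2), 2472 at 8 hr (4) and 341 averaged (8). The factor was computed from the same differences between replicates that measure the spread. It therefore left the log2 differences unchanged and shrank the spread by construction. A gain of calls was thus built in, and these counts are no evidence of a genotype difference. With only the groups compared, 693 genes were called at 0 hr. Members called between 4 and 8 hr were 1 to 4 in WT and 1 to 3 in S513A with a library left out, and 1 in S513A with only the groups compared. With the replicate block the count at 0 hr was 1 of 10 and the Gbp3 change from 4 to 8 hr in WT lost its call (adjusted p = 0.0633); it changed no other member's call, nor did a block within each genotype. Correlations of replicate differences between groups ran from -0.75 to 0.76 over all 15 pairs of groups, so the numbers were not taken to pair libraries.

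No sign change concerned a called difference. For Tgtp1 at 0 hr the genotype difference was 0.10 with quantile normalization and 0.0116 with read-depth weights, for Iigp1 at 4 hr 0.00194 with the further pseudocount, for the Gbp3 interaction at 8 hr 0.0249 and for the Irgm1 change from 4 to 8 hr in WT 0.0446 with quantile normalization. Ranges with a library left out, for the genotype difference, were -0.70 to 0.67 for Tgtp1 at 0 hr; -0.0521 to 0.21 for Gbp9 and -0.52 to 0.51 for Iigp1 at 4 hr; -0.0314 to 0.24 for Gbp2, -0.11 to 0.17 for Irgm1, -0.0811 to 0.37 for Igtp, -0.31 to 0.11 for Iigp1 and -0.23 to 0.48 for Tgtp1 at 8 hr; and -0.0193 to 0.56 for Iigp1 averaged. For the interaction they were -0.0909 to 0.37 for Gbp3 at 4 hr, and -0.29 to 0.16 for Gbp3, -0.25 to 0.0251 for Irgm1, -0.31 to 0.14 for Igtp and -0.54 to 0.82 for Tgtp1 at 8 hr. From 4 to 8 hr they were -0.0732 to 0.23 for Gbp7, -0.15 to 0.12 for Irgm1 and -0.26 to 0.0863 for Igtp in WT and -0.16 to 0.33 for Tgtp1 in S513A.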
